A study of Mus musculus with 8 samples.

Results

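The SMN complex loads the ring of Sm proteins onto the small nuclear RNAs (snRNAs) of the spliceosome. Its 9 genes, Smn1, Gemin2, Gemin4, Gemin5, Gemin6, Gemin7, Gemin8, Ddx20 and Strap, were picked by symbol as the known subunits of the complex and not by their values, out of 39017 genes measured by RNA-seq in iGBs. All 9 were found, once each, and all 9 were among the 16250 genes tested, those averaging at least 10 normalized counts. iGBs are splenic B cells cultured on 40LB feeder cells, a fibroblast line that provides CD40L and BAFF, with IL-4 at 1 ng/mL. They were harvested at day 4 as Prmt5-null cells (Prmt5 F/F Cγ1-cre, 4 libraries) or as control cells (Cγ1-cre with intact Prmt5 alleles, 4 libraries). Each library was an independent biological sample on the C57BL6/J strain and is named by the number in its label. Both genotypes carried the Cγ1-cre transgene, which is driven from the Cγ1 locus of activated B cells, so deletion follows activation in the culture. The study used young adult mice of both sexes, and no age or sex is tied to a library.

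In the cytoplasm, Prmt5 and its partners Wdr77 and Clns1a form the methylosome, which symmetrically methylates the arginine-rich tails of some Sm proteins and hands them on to the SMN complex. The SMN protein binds these tails and holds the complex together, Gemin2 grips the open ring of Sm proteins, and Gemin5 recognizes the snRNA. The assembled core particle then returns to the nucleus, where it matures in Cajal bodies. The comparison of the genotypes addressed here whether transcripts of the complex that receives Prmt5's substrates differed once Prmt5 was gone.

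Prmt5 itself (chromosome 14, 54507187 to 54517525, minus strand) checks the labels. It was measured at 1291, 1994, 1060 and 1808 normalized counts in the Prmt5-null libraries 10617, 10618, 10770 and 10771, and at 13088 in the control library CTRL-10650, 11084 in CTRL-10370, 11657 in CTRL-10596 and 11267 in CTRL-10597. A normalized count is the number of reads on a gene's exons divided by a size factor of its library. The genotypes were far apart, with a log2 difference of -2.98 (SE 0.17, adjusted p = 6.14e-06, limma) and, over all ways of dividing the 8 libraries 4 and 4, a two-sided exact permutation p of 0.0286, the lowest this design can give. Depth was similar, with 42752293 to 47174851 reads on genes in Prmt5-null and 36731721 to 50366174 in control libraries. The 8 B cell markers summed to between 161759 and 193272 normalized counts in Prmt5-null and between 159997 and 184107 in control libraries, and all 8 were tested, with Cd79a called lower and the others not called. The 5 markers of germinal center-like activation summed to 54912 to 63409 and 53297 to 59241, with none called. Markers of other cells differed in part between the genotypes. Fibroblast markers, which feeder cells would bring, summed to 7984 to 13758 in Prmt5-null against 5327 to 9169 in control libraries, all 13 tested of the 15 had a higher mean in Prmt5-null iGBs and 3 were called, Col3a1, Col1a2 and Sparc, while Postn averaged under 1. T cell markers summed to 327 to 486 against 696 to 811, with 2 of 7 tested and the defining marker Cd3e under 1. Most of that sum was Lck, a kinase gene, which was called lower at 384 ± 70.0 against 730 ± 50.6 normalized counts (SD, n = 4 each). Myeloid markers summed to 696 to 926 against 685 to 752, mostly Cd68, which was not called, while Adgre1, a macrophage marker, was called higher at 164 ± 31.6 against 101 ± 22.9 (SD, n = 4 each). Their part in the values given here was not tested, and in bulk RNA fewer cells of a type and less RNA per cell cannot be told apart.

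None of the 9 SMN complex genes was called between the genotypes. A gene was called where the adjusted p of limma was below 0.05 and the change at least 1.5-fold, which held for 6.48% of all genes tested and for 5.58% of the 9994 genes whose mean lay within the range of the members' means, from 188 to 8652 normalized counts. No member passed on adjusted p alone either, against 13.8% of all genes. Only Gemin2 had an unadjusted p below 0.05, which makes 1 of 9 against 29.3% of all genes with limma. It was also the only one with edgeR's quasi-likelihood test, against 29.4%, and with DESeq2's Wald test, against 30.3%, and neither tool called a member. Without Prmt5-null library 10618 or 10771 or control library CTRL-10650 the count was 0, and without Prmt5-null library 10617, or with limma without a trend, it was 2, Gemin2 and Gemin8. The mean was higher in Prmt5-null iGBs for 5 members and lower for 4, with a median log2 difference of 0.04 beside 0.00 over all genes. In no member were the 4 libraries of one genotype all above those of the other, which was so for 19.8% of all genes tested.

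**Figure D1:**
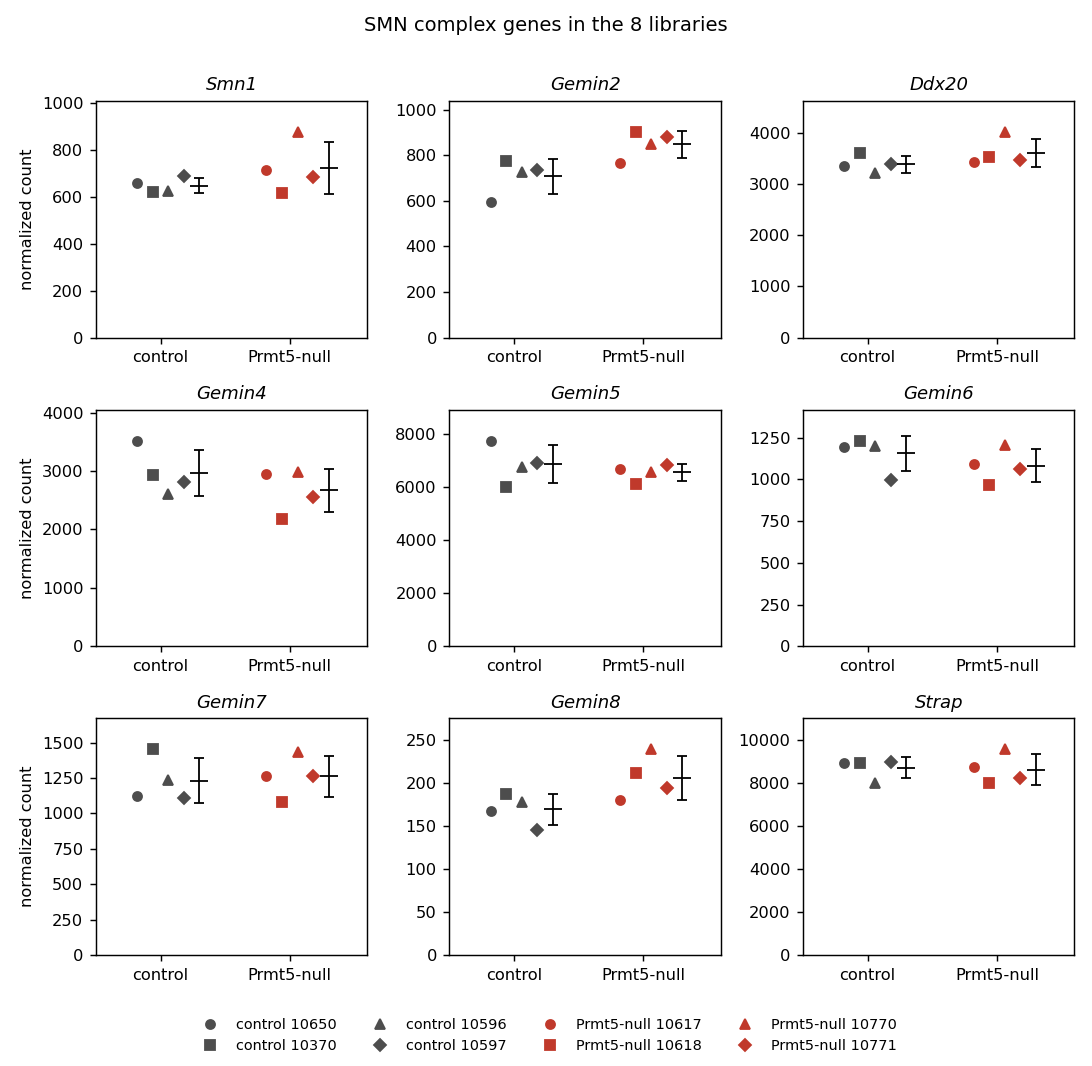
Normalized counts (vertical axes, linear and from 0) of the 9 SMN complex genes in the 4 control (grey) and 4 Prmt5-null (red) libraries, 1 point per library, with the mean ± SD of each genotype to its right. In each panel the ranges of the genotypes overlap, least for Gemin2, and Prmt5-null library 10770 (red triangle) is the highest of its genotype for 7 of the 9 genes.

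Smn1 (ENSMUSG00000021645, chromosome 13, 100124852 to 100137690, plus strand) encodes the SMN protein, whose loss in humans causes spinal muscular atrophy. Its normalized counts were 716, 618, 877 and 687 in Prmt5-null libraries 10617, 10618, 10770 and 10771, and 659, 620, 625 and 690 in the control libraries in the order given for Prmt5, which is kept for every gene that follows. The Prmt5-null library 10770 stood above all others, and the lowest value of the 8 was also from a Prmt5-null library. The means were 724 ± 110 and 648 ± 32.5 (SD, n = 4 each), and the log2 difference of 0.15 had a 95% confidence interval from -0.10 to 0.40 (adjusted p = 0.415, limma). Without library 10770 the log2 difference of Smn1 was 0.05.

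Gemin2 (ENSMUSG00000060121, chromosome 12, 59013393 to 59028470, plus strand), which holds the Sm ring open for the snRNA, came closest to a difference. It was measured at 767, 903, 849 and 879 normalized counts in the Prmt5-null libraries and at 597, 774, 728 and 736 in the control libraries. The genotypes overlapped by 1 pair of libraries, since the lowest Prmt5-null library lay just below the highest control library. The mean of 850 ± 59.6 in Prmt5-null iGBs was 1.20 times that of 709 ± 77.3 in controls (SD, n = 4 each) on the log2(normalized count + 1) scale, with a 95% confidence interval from 1.03 to 1.41. The log2 difference of 0.27 had an unadjusted p of 0.0258 and missed the threshold after adjustment over all genes (adjusted p = 0.115, limma).

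Ddx20 (ENSMUSG00000027905, chromosome 3, 105678270 to 105687574, minus strand) encodes Gemin3, a DEAD-box helicase of the complex. Its normalized counts were 3431, 3513, 4012 and 3457 in Prmt5-null and 3345, 3600, 3204 and 3381 in control libraries. Apart from the high library 10770, the Prmt5-null values sat within the control range, and the log2 difference was 0.09 (95% confidence interval -0.08 to 0.26, adjusted p = 0.474, limma). Gemin4 (ENSMUSG00000049396, chromosome 11, 76210571 to 76217664, minus strand) encodes the partner of Gemin3. It was measured at 2952, 2186, 2977 and 2557 normalized counts in Prmt5-null and at 3520, 2931, 2601 and 2818 in control libraries. These ranges overlapped widely, the lowest library being Prmt5-null and the highest control, and the log2 difference was -0.16 (95% confidence interval -0.41 to 0.10, adjusted p = 0.412, limma).

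The counts of Gemin4 are uncertain. In the GENCODE M21 annotation of GRCm38, 3353 of its 3734 exonic bases (89.8%) are also exons of Glod4 on the same strand, and 77.0% are exons of Fam57a on the opposite strand, and how the counting treated reads shared between genes or strands is not given in the sources used here. Glod4 had 6329 ± 1032 normalized counts in Prmt5-null and 5994 ± 486 in control iGBs (SD, n = 4 each), with overlapping ranges. The symbol Fam57a belongs to separate entries, and which of them shares exons with Gemin4 was not determined. The more abundant had 282 to 341 normalized counts in Prmt5-null and 364 to 472 in control libraries, lower in Prmt5-null iGBs and without overlap. Such a gap in either direction was seen for 19.8% of all genes tested. The other had 56.1 to 81.3 in Prmt5-null and 44.8 to 96.0 in control libraries, which overlap. The part of Fam57a in the counts of Gemin4 was not tested. Gemin7 shares 14.8% of its exonic length with Zfp296 on the opposite strand, and the other members share no exonic base with another gene.

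Gemin5 (ENSMUSG00000037275, chromosome 11, 58120002 to 58168539, minus strand), the large WD-repeat protein that selects snRNAs, had normalized counts of 6692, 6131, 6569 and 6856 in Prmt5-null and of 7760, 6024, 6760 and 6914 in control libraries. Here the control libraries held both the highest and the lowest value, so the Prmt5-null range lay inside the control range. The log2 difference was -0.06 (95% confidence interval -0.24 to 0.12, adjusted p = 0.680, limma).

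Gemin6 and Gemin7 form a dimer with Sm folds, Gemin8 joins it to SMN, and Strap, also named Unrip, binds Gemin7. Gemin6 (ENSMUSG00000055760, chromosome 17, 80224441 to 80228497, plus strand) had 1093, 964, 1206 and 1061 normalized counts in Prmt5-null and 1192, 1232, 1201 and 998 in control libraries. The 3 other control libraries lay together, and CTRL-10597 lay below them. All controls except CTRL-10370 lay within the Prmt5-null range. The log2 difference of Gemin6 was -0.10 (95% confidence interval -0.31 to 0.12, adjusted p = 0.564, limma). Gemin7 (ENSMUSG00000044709, chromosome 7, 19564946 to 19577595, minus strand) had 1263, 1083, 1431 and 1267 normalized counts in Prmt5-null and 1120, 1452, 1239 and 1109 in control libraries. Its ranges were nearly the same in both genotypes, and the log2 difference was 0.04 (95% confidence interval -0.21 to 0.28, adjusted p = 0.861, limma).

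Gemin8 (ENSMUSG00000040621, chromosome X, 166170454 to 166190512, plus strand) was the least abundant member, with 180, 211, 239 and 194 normalized counts in Prmt5-null and 167, 187, 178 and 146 in control libraries. Its 2 highest libraries of the 8 were Prmt5-null and Prmt5-null 10771 also lay above the control range, while 10617 lay within it, below CTRL-10370 alone. As for Gemin2, the genotypes of Gemin8 overlapped only by that pair of libraries. The log2 difference of 0.28 was the largest of the 9 and its 95% confidence interval, from -0.04 to 0.59, the widest (adjusted p = 0.224, limma). Strap (ENSMUSG00000030224, chromosome 6, 137735078 to 137751932, plus strand), a WD-repeat protein with partners outside the complex as well, had 8721, 7966, 9548 and 8196 normalized counts in Prmt5-null and 8933, 8896, 7990 and 8967 in control libraries. The Prmt5-null libraries held both the highest and the lowest value, and the log2 difference was -0.02 (95% confidence interval -0.19 to 0.15, adjusted p = 0.918, limma).

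These intervals give the size of a difference that the 8 libraries leave possible. For 8 of the 9 members the 95% confidence interval lay within 1.5-fold in either direction, which is 0.585 on the log2 scale, as it did for 57.4% of all genes tested. The exception was Gemin8, whose upper bound of 0.59 is just past that line, and whose 123 to 221 reads per library gave a counting error of up to 7.81% beside a spread between libraries of up to 12.4% (CV). The other members had between 554 and 9978 reads per library. Across the 9 genes the CV between libraries of a genotype ran from 4.73% for Gemin5 to 15.2% for Smn1, both in Prmt5-null iGBs. The median residual SD of the members was 0.14 on the log2 scale, against 0.15 for genes in the same range of levels and 0.19 for all genes tested.

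**Figure D2:**
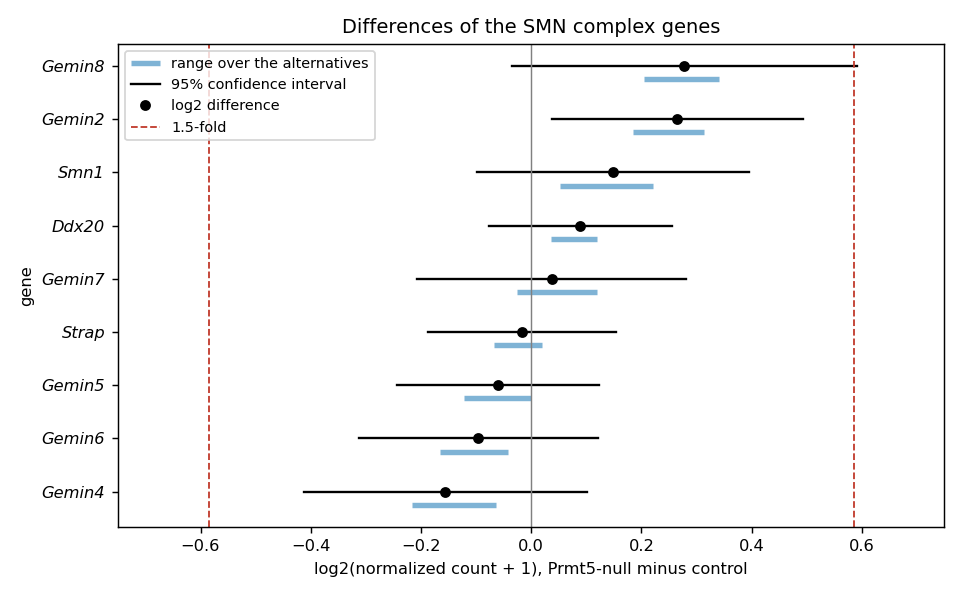
Log2 difference of each SMN complex gene (points, Prmt5-null minus control, on log2(normalized count + 1)) with its 95% confidence interval (black lines, n = 4 libraries per genotype) and the range of the difference over 18 alternative fits (blue bars). Every interval except that of Gemin2 includes 0, and every one except that of Gemin8 stays between the dashed lines at 1.5-fold.

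Most members shared their highest and lowest Prmt5-null libraries. Library 10770 was the highest of its genotype for 7 of the 9 members, all but Gemin2 and Gemin5, a count made after the values were seen, and it held the highest Prmt5-null value for 33.3% of all genes tested. Library 10618 was the lowest for 6 of the 9, also counted after the values were seen, and held the lowest Prmt5-null value for 29.1% of all genes tested. Averaged over the 9 genes, 10770 lay 0.18 above the mean of the 8 libraries on the log2 scale and 10618 lay -0.08 from it, while the controls lay between -0.07 and 0.03. Without 10770 no member was called, and the log2 differences of Gemin2, Gemin8 and Gemin4 were 0.26, 0.20 and -0.21. That of Gemin4 was -0.06 without 10618 and -0.07 without CTRL-10650.

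The cultures were grown in 2 experiments with 2 libraries of each genotype in both, but no label tells which library belongs to which, so the experiment was not part of the fit. The libraries also split 2 and 2 per genotype along the second principal component (25.8% of the variance). Prmt5-null 10617 and 10618 and control CTRL-10596 and CTRL-10597 were on one side. The log2 difference of Gemin2 was 0.18 on that side and 0.35 on the other, that of Gemin8 0.27 and 0.28, and that of Smn1 0.02 and 0.28. Gemin4 differed by -0.09 and -0.22, and Gemin6 by -0.09 and -0.10. Of the members left, Ddx20 was at 0.08 and 0.10, Gemin5 at -0.09 and -0.03, Strap at -0.02 and -0.01 and Gemin7 at 0.00 and 0.08. No member was called with the side as a block.

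Levels of different genes were compared per length, as normalized counts per kb of a gene's annotated exons. In control iGBs Strap was highest, at 2814 ± 153, followed by Gemin5 at 1037 ± 108 (SD, n = 4 each). Then came Ddx20 at 817 ± 39.6, Gemin6 at 809 ± 74.8, Gemin4 at 795 ± 105 and Gemin7 at 690 ± 89.4 normalized counts per kb, a group in which neighbours overlapped in range, with the doubt on Gemin4 given above. Gemin2 at 293 ± 32.0 and Smn1 at 250 ± 12.6 formed a lower pair, also overlapping, and Gemin8 at 68.2 ± 7.20 was 41.3 times below Strap. The transcript of the scaffold protein SMN was therefore among the 3 lowest by this measure, its place beside Gemin2 not being resolved.

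The order of the 9 genes was the same in Prmt5-null iGBs. There Strap had 2786 ± 227, Gemin5 992 ± 46.9, Ddx20 870 ± 66.3, Gemin6 757 ± 70.1 and Gemin4 714 ± 100.3 normalized counts per kb. Gemin7 had 708 ± 79.8, Gemin2 352 ± 24.7, Smn1 279 ± 42.5 and Gemin8 82.9 ± 10.3 on that scale. The ranges of neighbours overlapped as in controls, and in addition Gemin5 overlapped Ddx20. Summed over the 9 genes, the level per kb was 7541 ± 569 in Prmt5-null and 7575 ± 282 in control iGBs (SD, n = 4 each), a gap smaller than either SD. The order below Strap depends on the length used. By the longest transcript Gemin7 came second, above Ddx20 and Gemin5, and Smn1 stood above Gemin2.

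**Figure D3:**
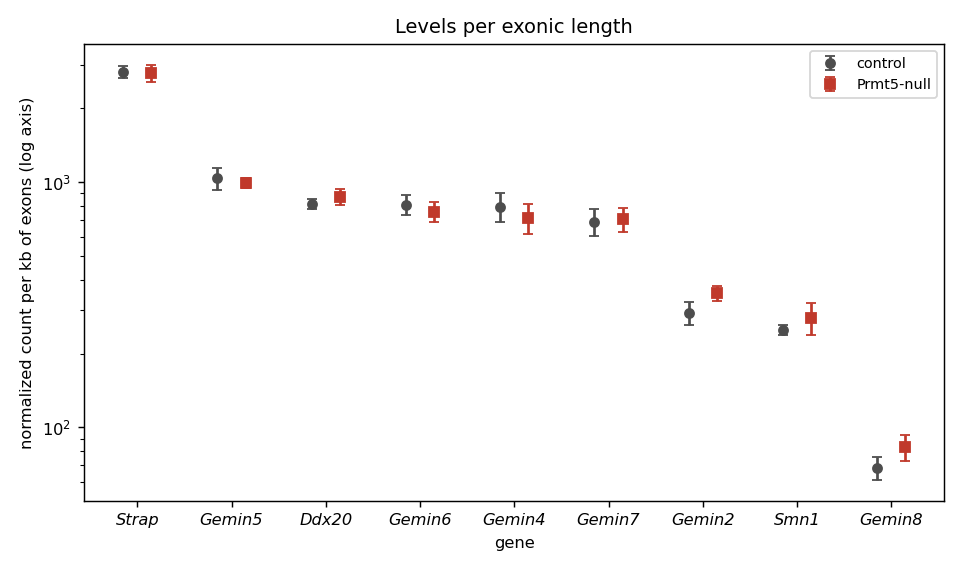
Level of each SMN complex gene in normalized counts per kb of exons (vertical log axis), as mean ± SD of 4 control (grey circles) and 4 Prmt5-null libraries (red squares). Strap stands at the top and Gemin8 at the bottom in both genotypes, with 4 genes between 690 and 870 and the pair of Gemin2 and Smn1 at 250 to 352.

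As a share of this summed level, Strap took 37.1% ± 1.28 in control and 36.9% ± 0.628 in Prmt5-null iGBs (SD, n = 4 each). Gemin2 was the 1 member whose share did not overlap between the genotypes, at 4.18% to 5.41% in Prmt5-null and 3.15% to 4.17% in control libraries. The gap between the nearest libraries was small, and without division by length the shares of Gemin2 overlapped, at 2.97% to 3.83% and 2.19% to 3.01%. Smn1 took 3.44% to 4.09% in Prmt5-null and 3.08% to 3.56% in control libraries, and Gemin8 0.951% to 1.23% and 0.785% to 0.992%. These shares are a description and were not tested.

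Splicing of the members was looked up in the authors' rMATS lists, in which a gene appears at most once for each type of event, and only with more than 10% difference in inclusion. None of the 9 members had a listed event, whether a skipped exon, mutually exclusive exons, an alternative 5′ or 3′ splice site or a retained intron. These lists require a mean above 50, which all 9 members exceed, and of the 13300 genes at that level 11.4% had at least 1 event. The lists keep only events past the authors' thresholds, so smaller differences in the splicing of members cannot be seen in them.

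The other genes of snRNP assembly were grouped into 6 lists along the pathway. The Sm core proteins are the cargo of the complex, and 0 of the 7 genes tested were called. All 7 had a higher mean in Prmt5-null iGBs, where 8184 of all 16250 genes did, with a median log2 difference of 0.13 and the largest values for Snrpe (0.24, adjusted p = 0.146, limma), Snrpg (0.20) and Snrpd2 (0.16). None of them had libraries that separated by genotype, and library 10770 was the highest Prmt5-null library for each.

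Among the 6 genes of the methylosome and the handover of Sm proteins, only Prmt5 was called. Wdr77, the obligate partner of Prmt5, was lower by adjusted p (log2 difference -0.28, adjusted p = 0.0188, limma) but under 1.5-fold. It had 4416 to 4626 normalized counts in Prmt5-null against 5192 to 5931 in control libraries, which did not overlap. Of all 16250 genes tested, 1191 were lower by adjusted p, and 19.8% had genotypes that did not overlap, in either direction. Coprs (0.30, adjusted p = 0.196) and Clns1a (0.21, adjusted p = 0.183, limma) did not pass. Of the U7 Sm-like proteins, which the SMN complex loads on the U7 snRNA of histone mRNA processing, neither passed, with Lsm11 at 0.28 (adjusted p = 0.0579, limma) and Lsm10 at -0.20.

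At the steps of snRNA export, cap and import on either side of Sm ring assembly, 0 of 8 genes were called. By adjusted p 2 of the 8 were higher, against 1058 of all 16250 genes tested. The 2 act before the SMN complex and were the cap-binding protein gene Ncbp2 (log2 difference 0.42, adjusted p = 0.00575) and Phax (0.31, adjusted p = 0.0244, limma). Phax carries capped snRNA out of the nucleus, and the cap methyltransferase Tgs1 was at 0.12. Of 7 genes of Cajal bodies and SMN partners, 0 were called and 2 were higher by adjusted p, against the same 1058 of 16250. Smndc1, a splicing factor that shares the Tudor domain of SMN, differed by 0.48 (adjusted p = 0.0123) and Wrap53, a Cajal body protein, by 0.31 (adjusted p = 0.0317, limma), and the Cajal body scaffold Coil was at 0.26 (adjusted p = 0.0665, limma).

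Of the 19 genes of snRNA transcription and 3′ end formation, Snapc4, a subunit of the factor that binds snRNA promoters, was called, with 2508 to 3866 normalized counts in Prmt5-null and 1705 to 2333 in control libraries and a log2 difference of 0.65 (adjusted p = 0.00832, limma). This call was lost without Prmt5-null library 10618 or control library CTRL-10370. Of all genes tested, 6.48% were called and 13.8% passed on adjusted p at any fold. Snapc5 (-0.37, adjusted p = 0.0407) and Ints8 (-0.28, adjusted p = 0.0326, limma) were lower by adjusted p and under 1.5-fold, and Snapc2 was at 0.26 (adjusted p = 0.108, limma). By adjusted p 1191 of all 16250 genes tested were lower. In these lists 5 genes had listed splicing events, where 11.4% of all genes with a mean above 50 had at least 1. They were 1 of 6 genes in the methylosome list, 1 of 7 in Cajal bodies and partners and 3 of 19 in this list. Among genes above that mean, 0 of 7 Sm core, 0 of 2 U7 and 0 of 8 export, cap and import genes had an event. Prmt5 had 3 events, and its skipped exon (chromosome 14, 54513291 to 54513454) had inclusion levels of 0.153, 0.304, 0.027 and 0.298 in Prmt5-null and of 1.0, 1.0, 0.995 and 0.989 in control iGBs. Prmt5 is the gene deleted in these cells, and the part of that deletion in its 3 events was not tested. Snapc4 retained an intron (chromosome 2, 26373467 to 26374020) at 0.395, 0.545, 0.472 and 0.394 against 0.174, 0.2, 0.298 and 0.308. Usp9x, a deubiquitinase that binds SMN, used an alternative 3′ splice site at 0.561, 0.715, 0.604 and 0.646 against 0.412, 0.431, 0.471 and 0.498. Ints2 retained an intron at 0.12 to 0.267 against 0.035 to 0.076, and Ints11, listed as Cpsf3l, included an exon at 0.862 to 0.963 against 0.737 to 0.885, which overlap. These are the authors' values, in lists that name neither libraries nor genotypes. The list placed first was read as control from the order in which the study names its groups, and the Prmt5 exon rested on 5574 reads in it and 405 in the other.

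**Figure D4:**
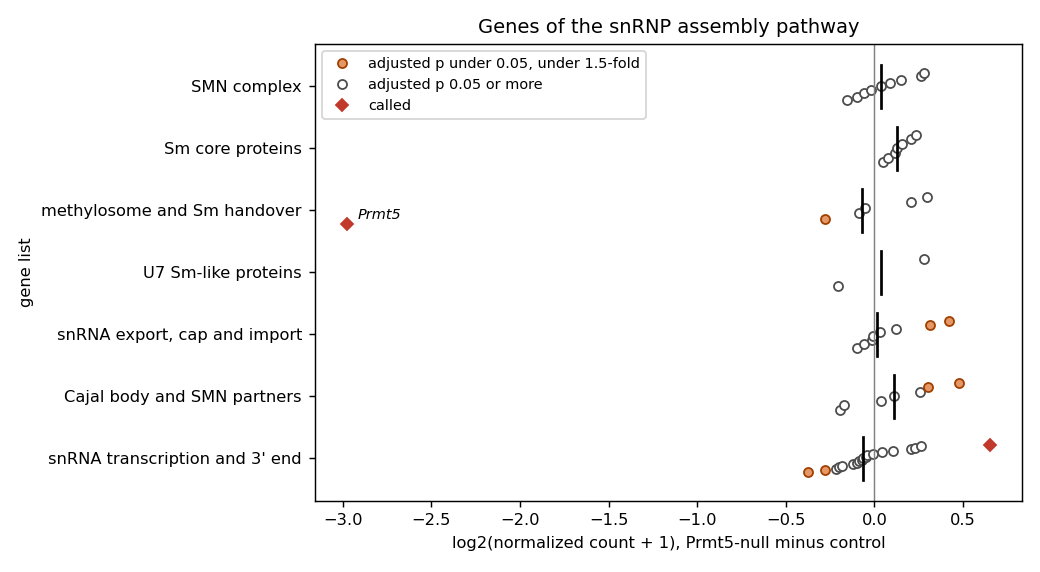
Log2 difference (horizontal axis, Prmt5-null minus control, on log2(normalized count + 1)) of each tested gene of the SMN complex and of the 6 other lists of snRNP assembly, 1 point per gene, with the median of each list as a black bar. The 9 SMN complex genes lie between -0.16 and 0.28 with no point past the adjusted p threshold, and Prmt5 and Snapc4 are the called genes.

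Of the 16241 tested genes outside the complex, those whose level over the 8 libraries ran closest to the mean of the members were Ddb1, Arpc1a and Tpm4. Their root mean square differences from it were 0.0259, 0.0265 and 0.0297 on the log2 scale, where the median gene differed by 0.232. This likeness is over 8 libraries that share their depth and normalization, and is a description only.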

How the data were processed

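RNA-seq of 4 Prmt5-null and 4 control iGB cultures was analysed. The authors trimmed reads with Trimmomatic 0.32, aligned them to mm10 (GRCm38) with STAR 2.3.0e, counted unique reads on Ensembl exons with featureCounts 1.4.4 and deposited a normalized signal, these counts divided by DESeq2 1.14.1 size factors. The library kit was stranded, and the strand setting of the counting is not given in the sources used here. All values were whole reads within 0.1 read (100%), so reads were recovered. The rMATS lists also hold the authors' p-values, FDR and inclusion differences, which were not used. These lists name no genotype, and list 1 was read as control because the study gives inclusion differences as wild type against knockout.

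Genotypes were compared with limma 3.58.1 (R 4.3.3), lmFit and eBayes with a trend, on log2(normalized count + 1), over 16250 genes with a mean of at least 10 (12321 of 39017 were at 0), with Benjamini-Hochberg adjustment over all of them. Changes of low genes are understated on this scale. Scripts were tested on simulated data. Alternatives changed the pseudocount, filter, normalization, trend, tool (edgeR 4.0.16, DESeq2 1.42.0 on recovered reads), thresholds, libraries and block. Lengths and overlaps came from GENCODE M21 (GRCm38). Tables were made with Python 3.11.15, pandas 2.3.3 and NumPy 2.4.6. The members, lists and tests were chosen with earlier results of these data known. Named are all members, Prmt5, the called genes of each pathway list with the 3 largest changes among its others, the 3 genes most like the members, and genes with splicing events. Col3a1, Col1a2, Sparc, Cd79a, Lck, Cd68, Adgre1, Glod4 and Fam57a were named after their values were seen. Other assays of the study were not analysed here.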

Additional observations from a re-analysis of the deposited data

Results flagged for a closer look

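Within the 4 libraries of a genotype, 3 values stood far from the rest by Dixon's test, in which the gap to the nearest library is set against the whole range. Gemin6 had 998 normalized counts in control library CTRL-10597, below the other controls. Ddx20 had 4012 normalized counts in Prmt5-null library 10770, above the other Prmt5-null libraries. Strap had 7990 normalized counts in control library CTRL-10596, below the other controls. Chance flags about 1 in 20 groups, and 20 were checked. Without the library concerned, the log2 differences of Gemin6, Ddx20 and Strap were -0.17, 0.04 and -0.06, and none was called.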

How the results depend on the processing

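The count of SMN complex genes called was 0 under all 20 alternatives. Of 162 values of members under 18 of them, 156 kept their direction and none passed an adjusted p of 0.05. Leaving out 1 library turned the sign of 3 small log2 differences, with ranges of -0.12 to 0.00046 for Gemin5, -0.026 to 0.12 for Gemin7 and -0.068 to 0.019 for Strap. The adjusted p of Gemin2 ranged from 0.0815 to 0.263 and that of Gemin8 from 0.173 to 0.436. Of all genes, 1053 were called, 2249 with no limit on the fold and 637 at an adjusted p below 0.01, and 1209 with the side of the second principal component as a block. With no limit on the fold, the calls were 2 in the methylosome list, 2 in export, cap and import, 2 in Cajal bodies and partners and 3 in snRNA transcription and 3′ end formation. In the last list, leaving out 1 library gave 0 to 1 calls. The share of Strap was 34.2% by longest transcript and 33.7% without division by length, where the ratio of the highest to the lowest member was 51.3. What caused the differences between these settings was not tested. No paired analysis was possible because the genotypes share no replicate number. Gemin8 had the fewest reads per library, and its interval with 4 libraries per genotype reached 0.59 on the log2 scale. The part of depth in this bound was not tested.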
